A study of Homo sapiens with 17 samples.

Results

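RNA of CHP-134 cells that had been kept in 2 µM all-trans retinoic acid (ATRA) for 6 days was compared with RNA of CHP-134 cells given only the solvent, DMSO. CHP-134 is an established human neuroblastoma line with an amplified MYCN gene, so both groups share that amplification and the rest of one line's genome. The comparison uses 4 of the 17 libraries of the study, 2 with DMSO and 2 at 6 days, chosen by their labelled treatment and time. Culture libraries at 1 and 3 days of ATRA, 2 each, entered the same model and give the time course, and the 9 tumor libraries are not analysed here. By the study's account most CHP-134 cells die within this time in ATRA and the few that remain look like neurons. All values at 6 days therefore come from surviving cells, and change within cells cannot be told apart from selection among them. In bulk RNA, fewer cells of a kind and less RNA per cell cannot be told apart either. The labels give the DMSO libraries no days in ATRA, and none of them is labelled as cultured for 6 days. How long those cells were cultured is not stated. Effects of ATRA and of time in culture therefore cannot be told apart in any result here. The study calls its replicates of these cells independent, and the labels do not say whether those of a group came from separate cultures. Therefore p-values measure the spread between these libraries, which may be technical.

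Retinoic acid enters the nucleus and binds retinoic acid receptors, transcription factors that sit with retinoid X receptors on pairs of short DNA repeats and switch nearby genes on. In the embryo it patterns the hindbrain and spinal cord and pushes neural precursors to stop dividing and to become neurons. Neuroblastoma arises from the sympathetic nervous system and adrenal medulla, whose mature neurons make noradrenaline, and retinoids are given against it after chemotherapy.

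RARB, itself a receptor gene, is a direct target of the liganded receptors. It holds in its promoter the textbook retinoic acid response element, a direct repeat, with 5 bases between its copies, of the 6-base half-site AGGTCA. The search was on both strands and let G stand for the first base of a half-site and T for the third. In RefSeq promoters (GRCh38.p14, 250 bases before to 50 after each start) only 31 of 35116 held such a repeat, or 0.0883%. The stretch just upstream of the RARB start is shown because it carries that repeat, in capitals.
RARB (chr3:25428143-25428262, plus strand): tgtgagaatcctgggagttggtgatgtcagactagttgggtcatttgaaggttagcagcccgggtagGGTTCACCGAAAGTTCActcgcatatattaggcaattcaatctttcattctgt
RARB was at 0.923 and 0.704 CPM with DMSO and 25.5 and 26.01 CPM at 6 days, with no overlap between the groups (log2 fold change 4.97 ± 0.12). Among the 10 tested protein-coding genes whose promoter held the repeat, BATF2, CFLAR, COL24A1, FSCN2 and RARB were called up, HROB was called down and 4 were not called. Of those at 10 to 300 CPM with DMSO, 1 was called up, 1 down and 3 were not called. Over all tested protein-coding genes 15.2% were called up and 14.3% down, and a difference from these shares was not tested. The names given were chosen after the values were seen. A match of letters is a description and not a bound site.

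Across 20237 genes with enough counts, 6304 differed by more than 2-fold with a false discovery rate (FDR) under 0.05 by edgeR's quasi-likelihood test, and only these are named as risen, fallen or called here. They make up 31.2% of the genes tested, with 3810 up (18.8%) and 2494 down (12.3%), and these shares are the background for every count of a gene group below. Levels are CPM, the counts of a gene scaled to the same library total (TMM), and a value after ± is the standard error of a log2 fold change with n = 2 libraries a group. A value with ± in parentheses after a gene is its log2 fold change. The 4 libraries held 32201848 to 39422890 counts. Only 4 of the called genes had overlapping libraries, which the call, made on these same libraries, nearly fixes in advance. A lack of overlap is therefore a description and not separate evidence for any gene named here. Rises were larger than falls: 852 genes rose more than 8-fold and 200 fell more than 8-fold, and 299 and 29 did so by more than 32-fold. The genes called up supplied 3.97% of all counts with DMSO and 14.6% at 6 days, while those called down went from 17.2% to 5.78%. Transcripts of the mitochondrial genome held 2.11% to 2.18% of counts with DMSO and 3.26% to 3.27% at 6 days.

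**Figure D1:**
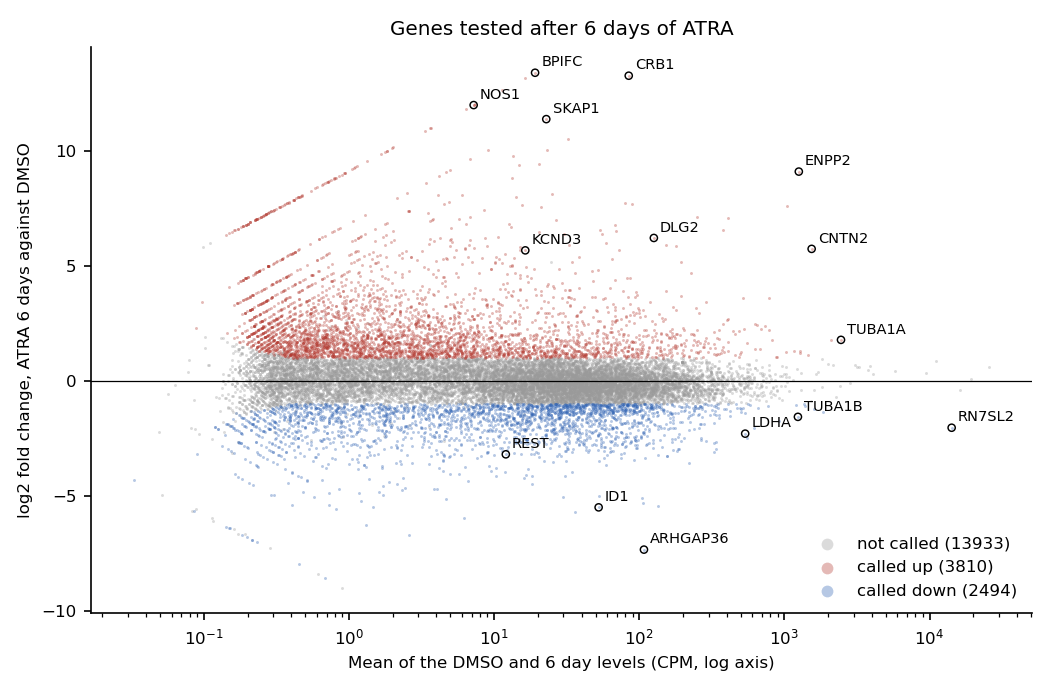
Each point is one of the 20237 genes tested, with the mean of its DMSO and 6 day levels on a log axis (CPM) and its log2 fold change at 6 days of ATRA against DMSO. Genes called up (3810) are red, genes called down (2494) blue and the others grey; the rises reach further from 0 than the falls, most of all at low levels.

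Several of the largest rises began from no counts or from 1 to 3. BPIFC, a member of a family of lipid-binding proteins, had 0 counts over both DMSO libraries and was at 37.5 and 39.1 CPM at 6 days, at least 934-fold higher against a floor of 3 counts over the group. The alcohol dehydrogenase genes ADH1A and ADH1B, whose enzymes also oxidize retinol, went from 0 counts to 15.2 and 14.6 and to 12.3 and 13.4 CPM, at least 363-fold and 313-fold. NOS1, the nitric oxide synthase of neurons, did so at least 352-fold. Such bounds cover counting error only. SKAP1, an adaptor of T cell adhesion signals, had 1 count over the 2 DMSO libraries and 47.3 and 44.1 CPM at 6 days, a ratio of 3341-fold (95% counting interval 599 to 132014). From 3 DMSO counts each, the vessel growth factor gene ANGPT1 reached 65.3 and 63.6 CPM and GDF10, a secreted factor of the TGF-beta family, 46.9 and 45.9 CPM. ENPP2, which makes the signaling lipid lysophosphatidic acid, was at 4.36 and 4.87 CPM with DMSO and 2504 and 2516 CPM at 6 days (log2 fold change 9.09 ± 0.03). In all, 112 genes called up had no count with DMSO.

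Among the deepest falls were genes of matrix, hormones and signaling. STC1, a secreted glycoprotein hormone gene, was at 208 and 204 CPM with DMSO and 5.38 and 5.09 CPM at 6 days (log2 fold change −5.30 ± 0.05), and MFAP4, which encodes a protein of elastic fibers, at 199 and 207 CPM with DMSO and 5.86 and 5.82 CPM at 6 days. OPRD1, the delta opioid receptor gene, fell from 102 and 104 to 3.28 and 3.09 CPM. In each of these genes both libraries at 6 days lay below both with DMSO. Only 12 genes called down had no count at 6 days.

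Genes of neurites were among those that gained the most CPM, and chaperone and division genes among those that lost the most. The axonal adhesion gene CNTN2 (mean 56.9 to 3025 CPM), the tubulin genes TUBA1A (1109.8 to 3799.6 CPM) and TUBB3 (908 to 1996 CPM), the spectrin anchor gene ANK2 (785 to 1785 CPM), the neuron navigator gene NAV1 (281 to 1286 CPM) and PREX1 (118 to 1448 CPM), an activator of Rac, were among the 10 that gained the most CPM. So was the long noncoding RNA NEAT1, the backbone of nuclear paraspeckles, with 738 and 745 CPM with DMSO and 1895 and 1706 CPM at 6 days. The 10 that lost most included HSP90AA1 from 2658 to 1025 CPM, HSPA8 from 2250.0 to 957 CPM, the DNA-untangling enzyme gene TOP2A from 946 to 167 CPM and the kinetochore gene CENPF from 989 to 237 CPM. By far the most CPM were lost by RN7SL2, a copy of the RNA of the signal recognition particle, at 22282 and 23454 CPM with DMSO and 5149 and 5938 CPM at 6 days. Its size is uncertain, since near-identical 7SL copies share reads. MYCN was at 1834 and 1856 CPM with DMSO and 892 and 909 CPM at 6 days (log2 fold change −1.03 ± 0.02), and its call was lost under 3 alternatives (−0.99 with total count scaling, −0.87 with upper-quartile scaling and −0.99 with a minimum count of 50).

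Sympathetic neurons make noradrenaline from tyrosine by tyrosine hydroxylase (TH), DOPA decarboxylase (DDC) and dopamine beta-hydroxylase (DBH). Of 13 genes of this pathway tested, 8 rose and 1 fell, with a median log2 fold change of 2.00 against 0.04 over all genes, and without DMSO library 1 a second fell. Of the 6 with a mean of 10 CPM or more in either group, 2 rose and 1 fell. Calls up were more frequent at low levels over all protein-coding genes too, at 42.1% under a mean of 1 CPM and 26.4% at 1 to 10 CPM. TH was at 0.231 and 0.264 CPM with DMSO and 2.73 and 3.29 CPM at 6 days (log2 fold change 3.59 ± 0.30) and DDC at 1.69 and 0.938 CPM with DMSO and 5.34 and 5.32 CPM at 6 days (log2 fold change 2.00 ± 0.20). DBH had no count in one DMSO library and was at 0 and 0.323 CPM with DMSO against 3.401 and 3.38 CPM at 6 days (log2 fold change 4.45 ± 0.53, or 3.37 without DMSO library 1, while the other DMSO library alone gives no fold). These rises start from levels so low that with DMSO the cells barely held RNA of the enzymes that define a noradrenergic neuron, although the sympathetic factor gene GATA3 (297 and 297 CPM) was plainly expressed. The highest level of the synthesis genes that rose was that of PNMT, which turns noradrenaline into adrenaline in the adrenal medulla, at 2.49 and 2.40 CPM with DMSO and 45.9 and 43.2 CPM at 6 days (log2 fold change 4.18 ± 0.09). SLC18A2, the vesicle loader of monoamines, rose to 10.8 and 8.44 CPM (from 2.03 and 1.91, with an overlapping gene), and MAOA, which breaks monoamines down, to 22.4 and 26.4 CPM (from 5.72 and 5.72). GCH1, which makes the cofactor that TH needs, went the other way, at 38.9 and 36.1 CPM with DMSO and 7.90 and 9.02 CPM at 6 days (log2 fold change −2.15 ± 0.07).

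Some sympathetic neurons use acetylcholine instead. CHAT, the acetylcholine synthesis gene, was at 49.9 and 50.4 CPM with DMSO and 28.7 and 28.1 CPM at 6 days and did not pass the fold threshold (log2 fold change −0.82 ± 0.05), and its vesicle transporter SLC18A3 was at 0.26 ± 0.07. ACHE, which splits acetylcholine, rose from 0.513 and 0.381 to 3.37 and 3.70 CPM, and so did its collagen tail gene COLQ, while its membrane anchor gene PRIMA1 fell by 1.95 on the log2 scale. Of the peptide transmitters GAL, the galanin gene, stood out with 32.6 and 34.5 CPM with DMSO and 304 and 316 CPM at 6 days (log2 fold change 3.21 ± 0.03). ADCYAP1, the gene of the neuropeptide PACAP, rose from 3.98 and 3.55 to 46.1 and 48.1 CPM, with an overlapping gene. The secretory granule gene SCG2 was at 117 and 111 CPM with DMSO and 639 and 641 CPM at 6 days, whereas VGF, whose product is packed into the same granules, fell by 1.51 (log2). The granin markers CHGA (0.59 ± 0.02) and CHGB (0.46 ± 0.07) did not pass the fold threshold. Of the 33 peptide and granin genes listed, 14 were tested, with 5 up and 2 down.

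**Figure D2:**
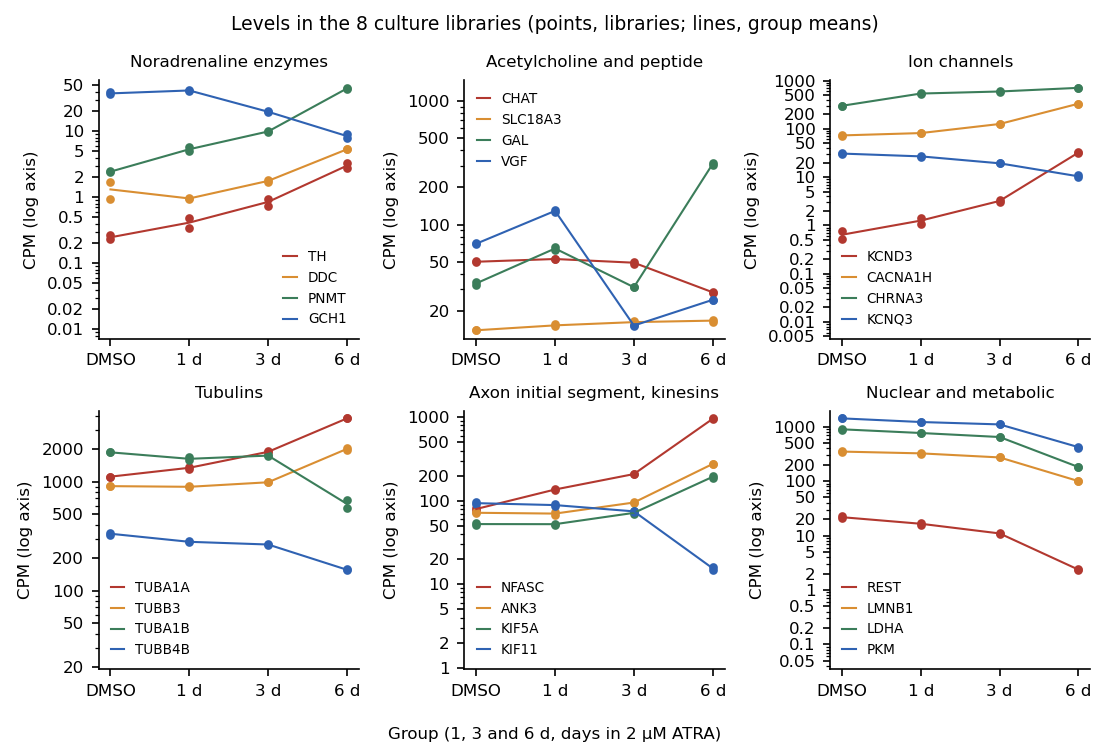
Levels (CPM, log axes) of 24 genes in the 8 culture libraries, as points, by group, with lines through the group means (n = 2). TH, DDC, PNMT, NFASC, KIF5A and TUBA1A end highest at 6 days, while GCH1, TUBA1B, KIF11, LDHA and REST end lowest; VGF and GAL peak at different times.

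Firing needs voltage-gated channels, which open in turn to carry sodium or calcium in and potassium out. Of 29 sodium and calcium channel genes tested, 15 rose and 3 fell (median log2 fold change 1.07). SCN3A, a sodium channel gene of immature neurons, was at 45.0 and 44.4 CPM with DMSO and 157 and 153 CPM at 6 days, and SCN2A at 8.46 and 8.59 CPM with DMSO and 26.1 and 25.3 CPM at 6 days. In both genes the groups were far apart for the spread between libraries. SCN1A fell by 1.297 (log2), and SCN9A, the channel of sympathetic and pain neurons, was at −0.40 ± 0.21 without a call. CACNA1H, a T-type calcium channel gene that opens at small depolarizations, was at 71.6 and 74.1 CPM with DMSO and 329 and 333 CPM at 6 days (log2 fold change 2.18 ± 0.03). Rises were also called for the L-type genes CACNA1C (1.51 ± 0.07) and CACNA1D (1.55 ± 0.13). The N-type gene CACNA1B, whose channel triggers release from sympathetic terminals, was at 0.84 ± 0.03, under the fold threshold. Among the auxiliary subunit genes CACNA2D2 rose most (2.15 ± 0.07), to 39.6 and 38.2 CPM.

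Potassium channel genes moved both ways. Of 57 potassium and HCN channel genes, 18 rose and 10 fell (median 0.46). Both main genes of the A-type current, which delays the next spike, were up: KCND3 was at 0.513 and 0.762 CPM with DMSO and 32.8 and 31.5 CPM at 6 days (log2 fold change 5.67 ± 0.13) and KCND2 at 17.8 and 18.97 CPM with DMSO and 111 and 113 CPM at 6 days (2.61 ± 0.04). KCNK12, a member of the leak channel family, was at 0.821 and 0.733 CPM with DMSO and 25.0 and 26.5 CPM at 6 days (log2 fold change 5.04 ± 0.13). KCNJ11, the pore of the ATP-sensitive channel, rose from 0.410 and 0.235 to 4.49 and 3.70 CPM. KCNMA1, the large-conductance channel opened by calcium and voltage, rose by 1.86 ± 0.05 and KCNT1, opened by sodium, by 2.32 ± 0.12. KCNQ3, a subunit of the M-current channel that sympathetic neurons use to limit firing, was at 29.9 and 31.3 CPM with DMSO and 10.8 and 9.85 CPM at 6 days (−1.57 ± 0.06). KCNG3 fell by 2.19 and KCNK5 fell by 2.59 (log2). None of the 4 HCN pacemaker genes was called, with log2 fold changes of −0.03 to 0.43.

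Transmitter receptor genes also split, with 18 of 50 up and 10 down. Fast transmission in sympathetic ganglia runs through nicotinic receptors built of alpha 3 and beta 4 subunits, and both of their genes rose: CHRNA3 was at 301 and 298 CPM with DMSO and 714 and 696 CPM at 6 days (1.23 ± 0.02) and CHRNB4 at 82.1 and 80.8 CPM with DMSO and 198 and 199 CPM at 6 days (1.28 ± 0.03). CHRNA4 rose from 1.08 and 1.32 to 28.2 and 29.9 CPM. CHRNA7 fell, from 28.4 and 29.1 to 4.34 and 5.17 CPM. In each of these 4 genes the groups did not overlap, and directions differed by subunit. GLRA1, a glycine receptor gene, was at 2.46 and 2.99 CPM with DMSO and 37.2 and 35.7 CPM at 6 days (3.75 ± 0.09), and GABBR2, a subunit of the metabotropic GABA receptor, at 12.3 and 11.7 CPM with DMSO and 123 and 117 CPM at 6 days (3.32 ± 0.05). The GABA subunit genes GABRQ, GABRG3, GABRE and GABRD fell, all from low levels of at most 7.71 CPM. P2RX3, the ATP receptor gene of sensory neurons, rose from 5.15 and 5.95 to 58.8 and 58.1 CPM. Of the glutamate receptor genes, GRIK2 was at 15.03 and 14.1 CPM with DMSO and 37.5 and 37.5 CPM at 6 days and rose (1.36 ± 0.06), and the metabotropic genes GRM8 and GRM2 fell by 2.97 and 3.23 (log2).

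**Figure D3:**
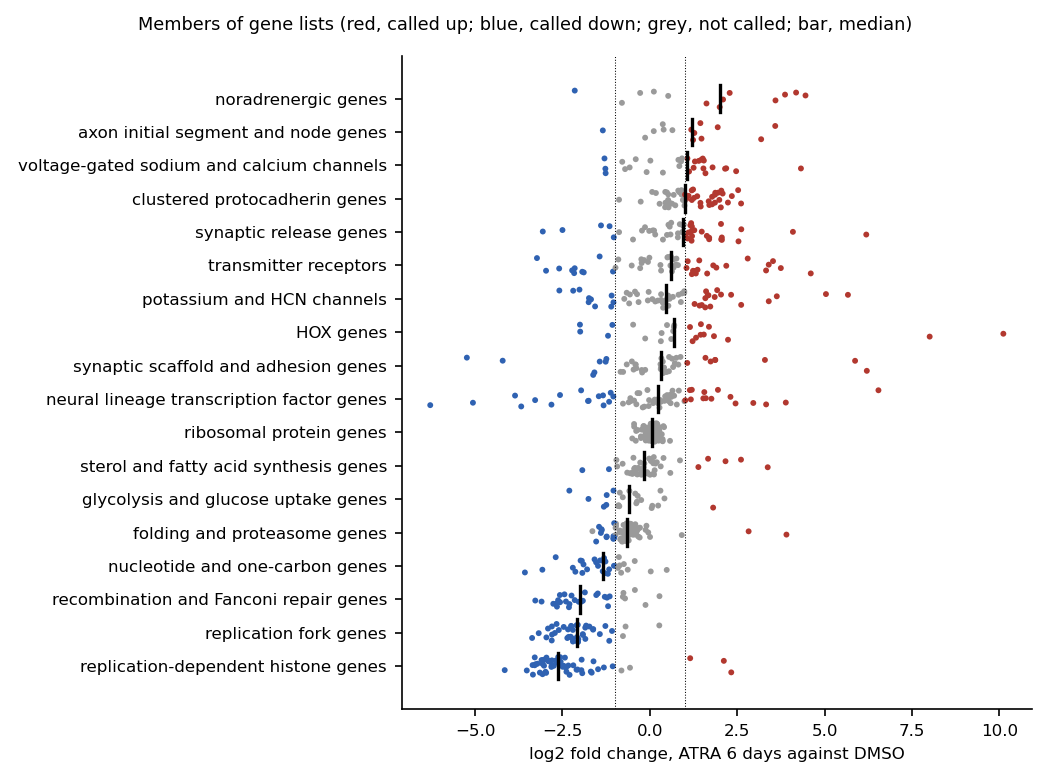
Log2 fold changes at 6 days of ATRA against DMSO of the tested members of 18 gene groups, as points (red called up, blue called down, grey not called), with a bar at each group's median and dotted lines at 2-fold. Medians run from 2.00 for noradrenergic genes to −2.62 for replication-dependent histone genes, and the 78 ribosomal protein genes lie between the dotted lines.

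Transmitter is released when synaptotagmins, the calcium sensors, set off fusion of vesicles by SNARE proteins at the active zone. Of 48 release genes, 22 rose and 5 fell (median 0.96). The calcium sensor genes SYT13 (19.6 and 18.6 CPM with DMSO and 118 and 116 CPM at 6 days) and SYT7 (63.5 and 66.6 CPM with DMSO and 273 and 269.7 CPM at 6 days) rose, by 2.62 ± 0.05 and 2.06 ± 0.03, and DOC2B by 2.04 ± 0.04. SYT1, the fast sensor of most synapses, was at 149 and 151 CPM with DMSO and 167 and 167 CPM at 6 days and its change of 0.15 ± 0.03 was far from the fold threshold. SYT2 (with an overlapping gene) fell by 3.06 and SYT6 fell by 2.50 (log2). The sensors therefore moved in both directions, gene by gene. SNAP25 was at 22.7 and 22.0 CPM with DMSO and 47.0 and 47.4 CPM at 6 days (1.08 ± 0.05), a rise just past the fold threshold. SYNGR1, a vesicle membrane gene, was at 69.3 and 72.9 CPM with DMSO and 293 and 289.7 CPM at 6 days (2.04 ± 0.03), and SYNPR rose from 0.0513 and 0.235 to 2.10 and 2.704 CPM (4.09 ± 0.40, or 3.32 without DMSO library 1 and 5.44 without library 2). The vesicle marker SYP was at 0.93 ± 0.03 and the active zone scaffold gene BSN at 0.57 ± 0.03, neither called.

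On the receiving side of synapses 1 scaffold gene stood out. DLG2, whose protein PSD-93 clusters receptors at synapses of sympathetic ganglia, was at 3.31 and 3.43 CPM with DMSO and 249.9 and 248 CPM at 6 days (log2 fold change 6.21 ± 0.05). Its relative DLG4, which encodes PSD-95, was at 67.4 and 67.1 CPM with DMSO and 109 and 105 CPM at 6 days (0.67 ± 0.03) and was not called. Of 42 scaffold and adhesion genes 8 rose and 7 fell, so that the share called was near the background. CNTNAP5 rose from 0.154 and 0.176 to 9.66 and 9.96 CPM, and the neurexin gene NRXN3 from 4.13 and 3.72 to 14.9 and 13.9 CPM. LRRTM1 fell from 2.41 and 2.35 to 0.0911 and 0.0294 CPM (−5.23 ± 0.42, or −6.18 without library 1 at 6 days), and SLITRK5 by 1.62 (log2).

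The axon initial segment, where spikes start, is held by ankyrin G (ANK3), beta IV spectrin (SPTBN4) and neurofascin (NFASC). Of 14 genes of this segment and of nodes 8 rose and 1 fell (median 1.21). NFASC was at 82.8 and 76.8 CPM with DMSO and 947 and 972 CPM at 6 days (log2 fold change 3.59 ± 0.03), ANK3 at 73.1 and 70.7 CPM with DMSO and 275 and 278 CPM at 6 days (1.94 ± 0.03) and SPTBN4 at 20.2 and 22.2 CPM with DMSO and 58.7 and 59.1 CPM at 6 days (1.48 ± 0.05). All 3 defining genes were thus higher in both libraries at 6 days. ANK1 rose by 3.18 ± 0.05, and the neural adhesion gene L1CAM was at 44.6 and 46.7 CPM with DMSO and 127 and 121 CPM at 6 days (1.45 ± 0.04).

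Tubulin genes moved both ways within the family. TUBA1A, the alpha tubulin of growing neurons, was at 1113 and 1107 CPM with DMSO and 3805 and 3794 CPM at 6 days (1.78 ± 0.02), and TUBB3, the beta tubulin used as a neuronal marker, at 901 and 915 CPM with DMSO and 1952 and 2040.1 CPM at 6 days (1.14 ± 0.02). TUBA1B, which dividing cells use, was at 1857 and 1853 CPM with DMSO and 574 and 674 CPM at 6 days (−1.57 ± 0.09), and TUBA1C fell by 1.32. These alpha tubulin genes are close copies, and reads that fit several of them were split by the estimate of counts. Over the whole microtubule group 13 of 42 genes rose and 8 fell. Of its 23 binding and severing genes 9 rose, 1 fell and 13 were not called. The rises included MAP6, which stabilizes neurite microtubules, at 123 and 122 CPM with DMSO and 529 and 535 CPM at 6 days (2.12 ± 0.03), TPPP3 at 5.33 and 4.08 CPM with DMSO and 60.9 and 58.5 CPM at 6 days (3.65 ± 0.08) and STMN4 at 11.1 and 9.91 CPM with DMSO and 88.5 and 90.5 CPM at 6 days (3.09 ± 0.05). FIGN, a severing enzyme gene, fell by 1.40 (log2).

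Motor proteins of the kinesin family serve mitosis or carry cargo, as along axons. All 13 mitotic kinesin genes fell (median −2.38), among them KIF11, which pushes spindle poles apart, from 96.2 and 91.4 to 16.2 and 14.8 CPM, and KIF18B, KIF2C and KIFC1. Of the 20 cargo kinesin genes 5 rose, 2 fell and 13 were not called, a share of calls near the background. KIF5A, a neuron-specific motor of anterograde axonal transport, was at 54.1 and 51.2 CPM with DMSO and 198 and 190.1 CPM at 6 days (1.88 ± 0.04). KIF1A, the motor of synaptic vesicle precursors, was at 0.36 ± 0.02 without a call, and the falls were those of KIF1C (−1.90 ± 0.06) and of KIF21B, which was at 69.8 and 72.2 CPM with DMSO and 1.46 and 1.26 CPM at 6 days (log2 fold change −5.70 ± 0.08).

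Clustered protocadherins are adhesion proteins that give single neurons an identity, and they sit in 3 neighboring clusters on chromosome 5. Of 53 tested, 26 rose and none fell. In the beta cluster, whose genes are single exons, 14 of 15 rose (median 1.95), such as PCDHB12 (4.10 and 4.19 CPM with DMSO and 24.9 and 25.7 CPM at 6 days) and PCDHB13 (3.67 and 4.16 CPM with DMSO and 22.5 and 22.5 CPM at 6 days). In the alpha cluster 9 of 16 rose and in the gamma cluster 3 of 22. Genes of the alpha and gamma clusters overlap and share their last exons, so reads of one cannot be fully assigned and their values are uncertain.

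DNA replication begins with the loading of the MCM helicase at origins, by the origin recognition complex, CDC6 and CDT1, and goes on with polymerases held by the PCNA clamp. Their genes are classical targets of E2F factors, which bind GC-rich octamers near start sites. Stretches upstream of 4 such genes are printed because they carry one of 4 octamers searched on both strands (TTTCCCGC, TTTGGCGC, TTTCGCGC, TTTGCCGC), in capitals.
MCM6 (chr2:135876514-135876613, minus strand): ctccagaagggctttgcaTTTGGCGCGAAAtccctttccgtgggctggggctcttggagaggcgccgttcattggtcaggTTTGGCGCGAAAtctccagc
PCNA (chr20:5126633-5126732, minus strand): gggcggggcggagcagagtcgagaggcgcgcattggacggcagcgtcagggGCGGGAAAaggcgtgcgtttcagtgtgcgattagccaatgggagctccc
GMNN (chr6:24775283-24775382, plus strand): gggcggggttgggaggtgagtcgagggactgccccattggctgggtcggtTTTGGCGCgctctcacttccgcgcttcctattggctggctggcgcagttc
POLA1 (chrX:24693731-24693830, plus strand): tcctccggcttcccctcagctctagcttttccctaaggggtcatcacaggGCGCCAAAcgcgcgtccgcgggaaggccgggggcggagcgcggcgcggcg
MCM6 belongs to the helicase, geminin (GMNN) stops it from being loaded again, and POLA1 is the polymerase that starts each strand. In MCM6 the matches overlap each other on opposite strands. MCM6 was at 139 and 134.2 CPM with DMSO and 32.9 and 32.7 CPM at 6 days (−2.06 ± 0.03), PCNA at 85.2 and 87.6 CPM with DMSO and 16.7 and 16.9 CPM at 6 days (−2.36 ± 0.04), GMNN at 42.3 and 41.8 CPM with DMSO and 10.1 and 10.1 CPM at 6 days (−2.06 ± 0.06) and POLA1 at 109 and 104 CPM with DMSO and 25.2 and 26.3 CPM at 6 days (−2.04 ± 0.04). In all 4 genes the libraries at 6 days lay far below those with DMSO.

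Of 41 replication fork genes, 38 fell and none rose (median −2.10), and the 3 not called, ORC2, ORC4 and ORC5, all encode subunits of the origin recognition complex. ORC4 was at 0.27 ± 0.05, the only member of the group above its DMSO level, while ORC1 fell by 2.91 (log2). The deepest falls were those of CDC6 (201 and 201 CPM with DMSO and 19.95 and 18.99 CPM at 6 days) and MCM10 (137 and 134.4 CPM with DMSO and 14.7 and 15.3 CPM at 6 days). Recombination and Fanconi genes, which repair breaks and crosslinks met by forks, fell in 24 of 30 cases with none up (median −1.999). BRCA1 was at 291 and 285 CPM with DMSO and 46.6 and 44.8 CPM at 6 days (−2.66 ± 0.03) and EXO1, a nuclease that trims breaks, at 118 and 108 CPM with DMSO and 12.7 and 13.7 CPM at 6 days (−3.10 ± 0.05), whereas RAD50, part of the sensor of breaks, was at −0.12 ± 0.03 without a call. Nucleotide and one-carbon genes, which make DNA building blocks, fell in 22 of 32 cases with none up (median −1.33). RRM2, the subunit of ribonucleotide reductase made in S phase, was at 408 and 403 CPM with DMSO and 33.5 and 34.7 CPM at 6 days (−3.57 ± 0.03). Its relative RRM2B, which serves resting cells, was at 15.7 and 15.8 CPM with DMSO and 20.2 and 23.7 CPM at 6 days (0.48 ± 0.07) and was not called. TK1, the thymidine kinase of S phase, fell by 3.07 (log2).

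Histones that package new DNA are made in S phase from clustered genes without introns. Of 67 such genes 55 were tested, 50 fell and 3 rose (median −2.62). The median at 3 days was −0.52. Many copies are near-identical, so values of single genes are uncertain. Promoter stretches of H2AC13 and H3C2 are shown because they hold repeated CCAAT boxes (CCAAT on either strand, in capitals), a feature common in histone promoters.
H2AC13 (chr6:27807973-27808142, plus strand): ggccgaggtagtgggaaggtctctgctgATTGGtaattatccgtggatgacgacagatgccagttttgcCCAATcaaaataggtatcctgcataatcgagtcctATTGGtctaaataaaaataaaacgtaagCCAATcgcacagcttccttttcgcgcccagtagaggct
H3C2 (chr6:26032130-26032229, minus strand): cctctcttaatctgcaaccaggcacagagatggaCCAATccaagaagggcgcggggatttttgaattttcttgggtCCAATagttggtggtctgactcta
H2AC13 was at 194 and 197 CPM with DMSO and 25.8 and 29.7 CPM at 6 days (−2.82 ± 0.13) and H3C2 at 321 and 332 CPM with DMSO and 40.9 and 41.6 CPM at 6 days (−2.98 ± 0.03). Groups did not overlap in either gene. The 3 genes that rose were H4C15, H3C6 and H2BC6, the last with an overlapping gene. H4C15 was at 11.4 and 9.998 CPM with DMSO and 53.1 and 54.8 CPM at 6 days (2.33 ± 0.07). Among replacement histones, which are made outside S phase too, H2AX (−2.53 ± 0.03), the centromere histone gene CENPA (−2.22 ± 0.06) and H2AZ1 (−1.60 ± 0.03) fell. H3-3A and H3-3B, which encode H3.3, were at −0.08 ± 0.02 and −0.24 ± 0.02 without a call.

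Counted by single promoter, octamers of the E2F type were found in 3.31% of the 35116 RefSeq promoters and CCAAT in 34.6%. The shares below count genes instead, with a match in any promoter of the gene, and are not to be set against these 2 values. Their background is the share among protein-coding genes not called. Among protein-coding genes with a promoter in the table, E2F octamers were present in 10.6% of the 1598 called down, 6.23% of the 8070 not called and 3.37% of the 1631 called up. The gradient was also there among genes at 10 to 300 CPM with DMSO, with 13.1%, 6.65% and 3.52%. They were present in 18 of 35 replication fork genes (51.4%), 6 of 26 recombination and Fanconi genes (23.1%) and 3 of 35 synaptic release genes (8.57%). CCAAT was present in 44 of 52 replication-dependent histone genes (84.6%), and in 42.4% of the protein-coding genes not called. These shares are descriptions of letters in a window and were not tested.

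**Figure D4:**
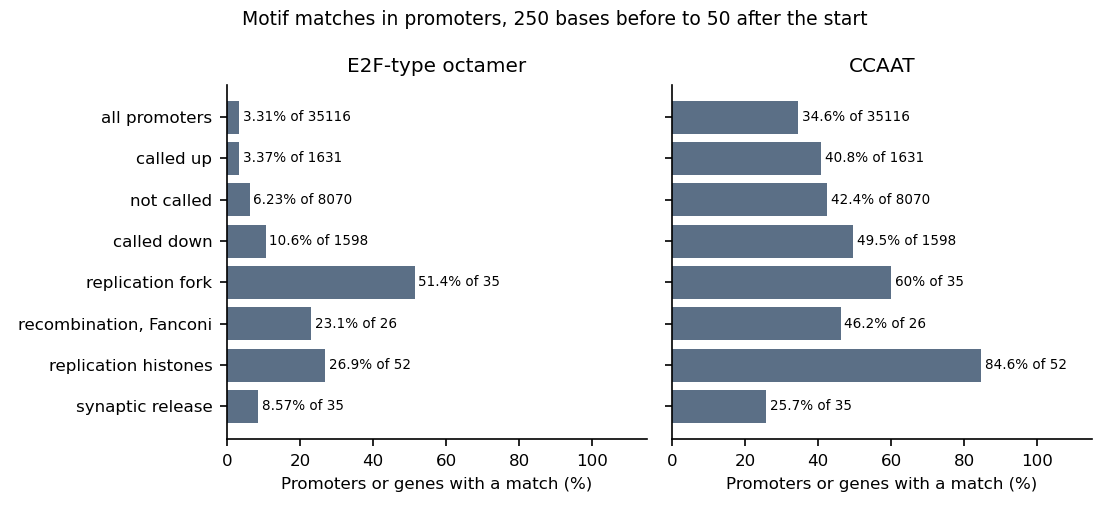
Bars give the share (%) of promoters or genes with at least 1 match in the window of 250 bases before to 50 after the start, for E2F-type octamers (left) and CCAAT (right), beside the number searched. The bar for all promoters counts single promoters, and the other bars count genes with a match in any of their promoters. E2F octamers are most frequent in replication fork genes (51.4%) and CCAAT in replication-dependent histone genes (84.6%).

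Genes of protein synthesis gave fewer calls than the background. Ribosomal protein genes, which cells need in large amounts to grow, stayed within 2-fold: none of 78 was called, the median log2 fold change was 0.06 and the range −0.50 to 0.58. The 20 cytosolic tRNA synthetase genes were at a median of −0.51 with none called. Of 33 translation factor genes 4 fell and none rose, and EIF5A fell from 674 and 701 to 304 and 307 CPM (−1.17 ± 0.02). With total count scaling EIF2S1 (log2 fold change −1.03) and EIF3J (−1.01) lost their calls. Upper-quartile scaling took the calls of both and that of EIF4EBP1 (−1.09). SLC7A5 and SLC3A2, both subunits of the large neutral amino acid carrier, fell by 1.57 and 1.28 (log2). Among folding and proteasome genes 12 of 63 fell and 2 rose (22.2% called), and 7 fell with total count scaling. They leaned downward, with a median log2 fold change of −0.67 and 59 of the 63 below 0. Of the 18 heat shock genes among them 7 fell and 2 rose. The cytosolic chaperones HSP90AA1 (2697 and 2618 CPM with DMSO and 1018 and 1031 CPM at 6 days) and HSPA8 (2276 and 2224 CPM with DMSO and 975 and 939 CPM at 6 days) and the mitochondrial pair HSPD1 and HSPE1 (−1.40 ± 0.02 and −1.54 ± 0.03) fell. Both genes that rose encode partners in one route, chaperone-assisted autophagy: BAG3 was at 5.92 and 6.42 CPM with DMSO and 43.8 and 43.6 CPM at 6 days (2.83 ± 0.07) and HSPB8 at 0.154 and 0.293 CPM with DMSO and 3.07 and 3.62 CPM at 6 days (3.91 ± 0.31).

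Glucose metabolism genes leaned downward, with 6 of 23 down and 1 up (median −0.58). LDHA, the lactate dehydrogenase subunit of glycolytic tissue, was at 905 and 880.3 CPM with DMSO and 179 and 183 CPM at 6 days (−2.30 ± 0.02). PKM, the pyruvate kinase gene, was at 1420.0 and 1415 CPM with DMSO and 413 and 427 CPM at 6 days (−1.75 ± 0.02), and HK2, the hexokinase of fast-growing cells, fell by 1.32 (log2). These 3 genes fell in both libraries. ALDOC, the aldolase of brain, rose from 11.95 and 11.7 to 41.7 and 41.3 CPM. Of 48 nuclear genes of the respiratory chain 3 fell and none rose. The 13 transcripts of the mitochondrial genome were at a median of 0.58, and only MT-CYB was called, at 959.6 and 933 CPM with DMSO and 3266 and 3250.5 CPM at 6 days (1.78 ± 0.02).

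Lipid and lysosome genes gave few calls. Sterol and fatty acid synthesis genes gave 5 up and 2 down of 45. Of 7 genes of sterol efflux and its control 3 rose and 1 fell (median −0.50). ABCG1, which exports cholesterol, rose from 0.513 and 0.557 to 5.74 and 5.38 CPM, and APOE, which carries it, from 1.18 and 1.11 to 6.80 and 7.23 CPM. MYLIP, which has the LDL receptor degraded, fell by 1.93 (log2, and was at −2.52 without library 1 at 6 days). Lysosome and autophagy genes gave 7 up and 3 down of 68. OPTN, an autophagy receptor gene, was at 2.97 and 2.64 CPM with DMSO and 27.7 and 27.1 CPM at 6 days (3.28 ± 0.09). SCARB2, a lysosomal membrane gene, rose by 1.05 ± 0.02.

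Among 24 genes of the REST and BAF chromatin complexes 2 rose and 4 fell, a share of calls under the background. REST, the repressor that keeps neuronal genes silent in other cells, was at 22.4 and 21.0 CPM with DMSO and 2.40 and 2.32 CPM at 6 days (log2 fold change −3.20 ± 0.10), while its partner genes RCOR1 (−0.39 ± 0.04) and SIN3A (−0.41 ± 0.03) were not called. PTBP1, which blocks neuronal splicing in precursors, was at 717 and 731 CPM with DMSO and 279 and 279 CPM at 6 days (−1.38 ± 0.02), and PTBP2, which follows it in neurons, at 23.6 and 20.1 CPM with DMSO and 30.5 and 29.0 CPM at 6 days (0.44 ± 0.06) without a call. Of 21 neuronal RNA-binding genes 6 rose and 1 fell, and of 6 broadly expressed splicing regulators PTBP1 and MBNL3 fell and none rose. In both sets 33.3% were called, near the background. Of the 17 neuronal genes with a mean of 10 CPM or more in either group, 3 rose and 1 fell. The neuronal rises included CELF5 (17.5 and 17.0 CPM with DMSO and 42.9 and 42.3 CPM at 6 days) and KHDRBS2 (2.15 and 1.64 CPM with DMSO and 6.59 and 5.79 CPM at 6 days). In the BAF chromatin remodeling complex, which exchanges subunits when precursors become neurons, the precursor subunit PHF10 fell from 57.4 and 56.9 to 21.7 and 24.9 CPM. ACTL6A, also a precursor subunit, fell by 1.08 (log2), a call lost with upper-quartile scaling. The neuronal counterparts of PHF10 parted: DPF3 rose from 7.59 and 9.56 to 30.2 and 30.6 CPM and DPF1 fell from 44.1 and 44.1 to 19.1 and 18.9 CPM. ACTL6B, another neuronal subunit, was at 0.24 ± 0.05 without a call.

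DNA methylation is copied at forks by DNMT1 with UHRF1, and both genes fell: DNMT1 was at 326 and 331 CPM with DMSO and 114 and 111 CPM at 6 days (−1.54 ± 0.03) and UHRF1 at 332 and 329.5 CPM with DMSO and 54.2 and 54.1 CPM at 6 days (−2.61 ± 0.03). DNMT3A, which sets new methylation, was at 0.55 ± 0.02 without a call. Of the 24 DNA methylation and Polycomb genes 5 fell and 1 rose. LMNB1 and LMNB2, the B-type lamins of the nuclear envelope, were at 349.7 and 346 CPM with DMSO and 101 and 98.6 CPM at 6 days (−1.80 ± 0.03) and at 503 and 519 CPM with DMSO and 141 and 148 CPM at 6 days (−1.82 ± 0.03), and LMNA was at 0.54 ± 0.06 without a call. In all, 5 of 13 lamin and nuclear envelope genes fell and none rose.

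HOX genes record position along the body axis, and retinoic acid is known to open them from their 3' ends. Of 39 HOX genes 24 were tested, 11 rose and 4 fell. Only 7 of them had a mean of 10 CPM or more in either group, of which 2 rose and none fell. The B cluster had no count of HOXB5 or HOXB3 with DMSO, and at 6 days HOXB5 was at 4.19 and 3.70 CPM and HOXB3 at 1.15 and 0.676 CPM, at least 96.1-fold and 22.2-fold higher. HOXD4 rose from 1.77 and 1.73 to 4.53 and 5.06 CPM and HOXD9 from 11.3 and 12.1 to 27.9 and 26.5 CPM. In the A cluster 4 rose and 2 fell of 8 tested, in the C cluster 1 rose of 6, and in the D cluster 4 rose and 2 fell of 8. Members toward the 5' ends went both ways: HOXD13 and HOXA11 (with an overlapping gene) fell by 1.99 and 2.00 (log2), and HOXC10 rose by 1.15 ± 0.13.

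Transcription factors of neural lineages gave 15 rises and 16 falls among 66 genes. POU3F1, a POU factor of developing neurons and Schwann cells, was at 19.98 and 18.7 CPM with DMSO and 287 and 286 CPM at 6 days (3.89 ± 0.03). NHLH1 was at 15.6 and 15.5 CPM with DMSO and 156 and 156 CPM at 6 days (3.33 ± 0.04) and the zinc finger gene ST18 at 23.5 and 21.5 CPM with DMSO and 175 and 176 CPM at 6 days (2.96 ± 0.04). Of the sympathetic factors GATA3 was at −0.56 ± 0.02 without a call. GATA2 fell from 31.95 and 32.1 to 2.52 and 1.91 CPM (−3.85 ± 0.09), ISL1 from 49.3 and 49.2 to 4.92 and 5.203 CPM (−3.28 ± 0.07) and TBX2 from 164 and 161 to 22.3 and 24.0 CPM (−2.81 ± 0.04). HMX3 rose from 4.28 and 4.87 to 24.8 and 25.2 CPM.

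Cell surface proteins that antibodies or cell therapies aim at in neuroblastoma moved unequally, with 7 of 21 up and 3 down. ALK, a receptor kinase mutated in some neuroblastomas, was at 20.03 and 21.5 CPM with DMSO and 147 and 156 CPM at 6 days (2.87 ± 0.04), and GPC2, an oncofetal glypican, at 59.2 and 65.2 CPM with DMSO and 247 and 245 CPM at 6 days (1.99 ± 0.03). SSTR2, the somatostatin receptor used for imaging, was at 421 and 407 CPM with DMSO and 112 and 111 CPM at 6 days (−1.89 ± 0.02), and GFRA2, a co-receptor of neurturin, at 165 and 174 CPM with DMSO and 15.9 and 15.1 CPM at 6 days (−3.45 ± 0.04). The groups did not overlap in any of the 4. CD276 (−0.31 ± 0.03) was not called. B4GALNT1 and ST8SIA1, which make the ganglioside GD2, were at −0.33 ± 0.04 and 0.85 ± 0.05, neither called. Of 20 antigen presentation genes 2 rose and 3 fell, a share of calls under the background. B2M, the light chain of class I molecules, was at 39.3 and 40.3 CPM with DMSO and 17.4 and 15.5 CPM at 6 days (−1.27 ± 0.06), and NLRC5, which switches class I genes on, fell by 3.23 (log2). The rises were those of ERAP1, which trims peptides for class I molecules (1.39 ± 0.09), and NECTIN2, a ligand of receptors on lymphocytes (1.18 ± 0.19). HLA-B, HLA-C and HLA-E had too few counts to be tested.

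Growth factor genes and their receptors moved in both directions, with 22 of 55 up and 13 down. BDNF, the neurotrophin of neuron survival, was at 1.23 and 0.909 CPM with DMSO and 63.2 and 64.9 CPM at 6 days (5.89 ± 0.10, with an overlapping gene), and VEGFA at 19.4 and 19.03 CPM with DMSO and 95.1 and 96.3 CPM at 6 days (2.32 ± 0.05). TGFB3, a TGF-beta gene, fell by 2.11 (log2). The fibroblast growth factor receptor genes FGFR2 and FGFR3 fell by 3.24 and 4.31, both from at most 4.53 CPM, and without library 1 at 6 days FGFR3 was at −5.26. Notch and Wnt genes gave 12 rises and 15 falls of 55. NOTCH1 fell from 7.28 and 8.39 to 1.37 and 1.94 CPM, the ligand gene DLL4 and the inhibitory ligand gene DLL3 rose (1.98 and 1.70), and WNT11 rose from 0.128 and 0.0586 to 4.83 and 4.94 CPM (5.62 ± 0.30, or 6.28 without DMSO library 1). The secreted Wnt inhibitor genes parted, with FRZB down from 12.3 and 11.3 to 1.03 and 0.735 CPM and DKK2 up by 3.96 ± 0.28 (log2).

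Matrix and integrin genes gave 17 rises and 22 falls of 63. LAMA5, a laminin chain gene of mature basement membranes, was at 27.3 and 28.4 CPM with DMSO and 353 and 367 CPM at 6 days (3.70 ± 0.03), and LAMA1, its embryonic relative, at 35.9 and 38.1 CPM with DMSO and 6.32 and 6.20 CPM at 6 days (−2.56 ± 0.07). COL25A1, a collagen gene of neurons, was at 13.6 and 13.3 CPM with DMSO and 181 and 178 CPM at 6 days (3.74 ± 0.04), and COL4A1, a core chain of basement membranes, at 14.7 and 15.8 CPM with DMSO and 2.73 and 2.704 CPM at 6 days (−2.48 ± 0.10). Of the 24 collagen genes tested 7 rose and 7 fell, and of the 23 genes of laminins and other matrix 8 rose and 7 fell. ITGA3 rose from 5.13 and 5.07 to 45.5 and 46.1 CPM and ITGA4 (with an overlapping gene) fell from 16.6 and 17.8 to 1.37 and 1.29 CPM. Of genes used as signs of senescence 12 of 22 fell and 4 rose. The list holds genes that are lost in senescent cells beside others, so these totals have no single direction. All 4 rises, the largest of 3.27 (log2), and 6 of the falls were among its 14 tested genes of secreted factors. CDKN1A, the p21 gene, was at 88.6 and 86.9 CPM with DMSO and 162 and 165 CPM at 6 days (0.89 ± 0.03) without a call, LMNB1 and HMGB2, which are lost in senescent cells, fell (−1.80 and −2.11), and the secreted factor genes IGFBP4 and PLAUR fell too (−3.67 and −2.98). IL6 had 0 and 1 counts over the 2 libraries with DMSO and at 6 days.

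Markers of other cell types were checked in the same libraries. Leukocyte markers summed to 0.667 to 0.850 CPM with DMSO and 0.395 to 0.647 CPM at 6 days, and 6 of 12 were at 0 in all 4 libraries. Of 10 endothelial markers only CLDN5 was tested, and it rose from 1.31 and 1.73 to 132 and 142 CPM, while PECAM1 had 0 and 9 counts and VWF 4 and 22 counts with DMSO and at 6 days. Fibroblast and smooth muscle markers summed to 164 to 168 CPM with DMSO and 122 to 124 CPM at 6 days, with 2 of 13 up and 8 down. Glial markers, with those of Schwann cell precursors, summed to 64.2 to 66.9 CPM with DMSO and 125 to 131 CPM at 6 days. Of 8 tested, 4 rose and 1 fell. The members that gained the most CPM were GAP43 and NGFR, which neurons also express. The largest fold was that of CDH19, with 1 count over the DMSO libraries and 56 counts at 6 days. Its ratio was 61.1-fold (counting interval 10.5 to 2458). SOX10, which defines the lineage, was at 0 in all 4 libraries. Epithelial markers reached 9.51 to 9.88 CPM from 1.70 to 1.95 CPM, with KRT5 and KRT19 at 0. Sensory neuron markers went from 60.8 to 61.4 CPM to 169 to 173 CPM, with P2RX3, SCN11A and TRPM8 among those up, DRGX and RUNX3 down (1 of them without library 2 at 6 days), and CALCA, TAC1, PIEZO2 and MRGPRX1 at 0. The part of other cell types in the results was not tested.

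Shares of called genes differed by kind and genomic length of gene, properties that the choice of libraries did not use. Long noncoding RNA genes rose more often than protein-coding genes: 33.1% of 3566 were called up and 6.45% down, against 15.2% and 14.3% of 14113. At mean levels of 10 to 100 CPM the shares called up were 20.7% of 324 and 7.95% of 7500. At levels under 1 CPM they were 38.2% and 42.1%, so that the order there was the other way round. Of 81 snoRNA genes 28 rose and 3 fell. Among protein-coding genes split into deciles by genomic span, 27.1% of the longest decile (187 to 2474 kb) rose, against 12.2% to 15.7% in the other 9 deciles. At 10 to 100 CPM 21.7% of the longest decile rose and 11.1% fell, and of the shortest 3 deciles 5.90% rose and 16.2% fell. At 100 CPM or more the shares were 18.2% and 4.55% against 4.47% and 21.3%. Under 10 CPM the order of the shares that fell was the other way round, with 17.7% of the longest decile against 14.6% under 1 CPM and 19.7% against 14.9% at 1 to 10 CPM.

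**Figure D5:**
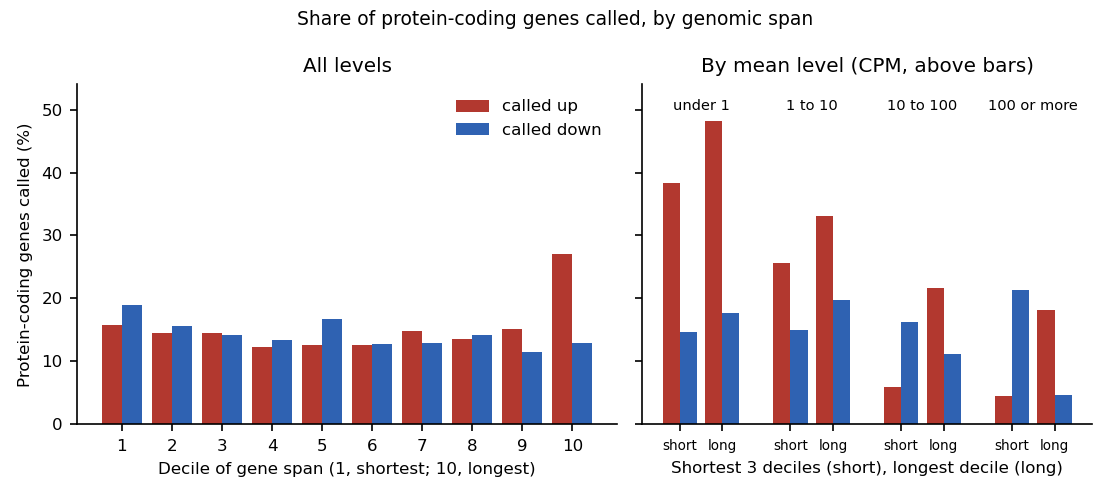
Bars give the share (%) of protein-coding genes called up (red) and down (blue) by decile of genomic span, from shortest (1) to longest (10), over all levels (left) and, by mean level in CPM, for the shortest 3 deciles and the longest decile (right). The longest decile holds the highest share called up, 27.1%, and in each class of level it has a higher share called up than the shortest 3 deciles.

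Calls were far fewer at the earlier times. Only 554 genes were called at 1 day (2.74% of those tested, 1.95% up and 0.791% down) and 1593 at 3 days (7.87%, 5.45% up and 2.43% down), all against the same DMSO libraries. Of the genes called up at 6 days 2754 (72.3%) were called up at neither earlier time, and of those called down 2158 (86.5%). From 3 to 6 days 4269 genes were called (21.1%), 2568 up (12.7%) and 1701 down (8.41%). Of the genes called up at 6 days against DMSO 59.2% were also called up from 3 to 6 days, and of those called down 61.3% were also called down. KCNK12 was at 2.17 and 1.79 CPM at 3 days and rose by 3.70 ± 0.11 from there, GAL by 3.31 ± 0.03 from 31.4 and 31.1 CPM, and ITGA3 by 3.36 ± 0.09 from 3.99 and 4.89 CPM. Division genes fell in this interval too: MCM6 was at 133 and 128 CPM at 3 days and fell by 1.99, KIF11 at 74.1 and 75.4 CPM and fell by 2.27 (log2). The median of the replication fork genes against DMSO was 0.00 at 1 day, −0.28 at 3 days and −2.10 at 6 days. Other genes had come most of the way by 3 days, as GABBR2 (85.9 and 88.7 CPM at 3 days and 123 and 117 CPM at 6 days), GLRA1 (26.7 and 25.4 and 37.2 and 35.7 CPM) and WNT11 (3.99 and 4.68 and 4.83 and 4.94 CPM). SOX9, a factor of glial and crest precursors, peaked at 3 days, with 32.7 and 32.2 CPM against 11.9 and 13.5 CPM at 6 days and 2.56 and 2.58 CPM with DMSO, and VGF had its lowest level at 3 days (15.5 and 15.1 CPM).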

How the data were processed

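RNA of CHP-134 cells was prepared by the authors with a stranded total RNA kit that removes ribosomal RNA. Per the submitters' processing notes, reads were trimmed with Trim Galore 0.4.4, aligned to hg38 with STAR 2.7.10a and turned into expected counts per gene with RSEM 1.3.3. The deposited expected counts were not normalized, and 7.55% of the values were not whole. The sources used here do not give the annotation release or the strand setting. A gene's reads and those of an overlapping gene therefore cannot be told apart, and a gene is marked as overlapped where another gene covers at least 10% of it with counts that are not negligible beside its own. RSEM divides reads that fit several genes, so values of near-identical copies are uncertain.

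Expected counts were rounded. Of 60662 genes, 20237 passed filterByExpr (minimum count 10). All 8 culture libraries (31607020 to 39422890 counts) were fitted with 1 mean per group and no covariate by edgeR 4.0.16 (R 4.3.3): TMM scaling, robust quasi-likelihood test, Benjamini-Hochberg adjustment over all genes tested. The biological coefficient of variation was 2.65%, with 4 residual degrees of freedom. Genes were called where the FDR was under 0.05 and the fold change over 2 in either direction. In a simulation of 6 days against DMSO on these 20237 genes, 99 of 100 genes changed 3-fold and 98 of 100 changed 8-fold were called, with 5 false calls. Only 200 genes were changed in it, equally up and down and all above 1 CPM with DMSO. It therefore does not cover lower levels, or changes as many and as unequal as those called here. Replicate pairs differed by more than sampling noise (chi-square per degree of freedom 1.97 to 3.82). Where 1 to 3 counts stood in a group, the ratio is given with its exact 95% interval, for counting error only.

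The members, the 45 gene lists and the tests were chosen with earlier results of these data known. Genes were named by rule: the 15 largest rises and falls of protein-coding genes at 10 CPM or more, the 10 that gained or lost the most CPM, up to 4 called members in each direction per role of a list, up to 3 members that define a list, and RARB, CYP26B1, MYCN and ID1. MCM6, PCNA, GMNN, POLA1, H2AC13 and H3C2, shown for their promoters, and ORC2, ORC4, ORC5, H2BC6 and H3C6 were named after their values were seen. Some genes that the rule picks are not reported here. Alternatives were other scalings, filters, tests and thresholds, a replicate term and leaving out each library.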

Additional observations from a re-analysis of the deposited data

How the results depend on the processing

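At 6 days against DMSO, 6304 genes were called (3810 up, 2494 down), and leaving out each of the 8 libraries in turn gave 6231 to 6607 (3710 to 4033 up, 2511 to 2580 down). With no fold threshold the counts at an FDR under 0.05 were 15197 (7831 up, 7366 down), and from 3 to 6 days 13782 (6886 up, 6896 down), by the threshold's construction. A minimum count of 50, which tests fewer genes, gave 2494 up, and 1638 up from 3 to 6 days. Testing against a 2-fold difference with glmTreat gave 4501, and from 3 to 6 days 2564 (1482 up, 1082 down). Other totals at 6 days were 6294 with relative log expression scaling, 6313 with total counts, 6465 with upper-quartile scaling (4442 up, 2023 down), 7100 with no filter, 6242 with the 4 libraries alone, which give no value from 3 to 6 days, 5696 by DESeq2 and 6318 by limma-voom. No gene called here had the opposite call under any of these settings. Upper-quartile scaling moved the median of all genes by 0.16 (log2), and the other settings by less than 0.1. The counts of calls in the gene lists depend on that scaling as well. With it 12 of these counts moved markedly and 78 did not, all 45 list medians moved by 0.1 or more and 29 named genes lost their call. Of 422 genes that the naming rule picks, 64 changed their call under at least 1 setting and 18 without 1 library. The replicate numbers did not pair the libraries: deviations of DMSO and 6 day libraries of the same number correlated at r = 0.049 over 10367 genes, and with the replicate number as a block 6278 genes were called (3787 up, 2491 down), with no call of a named gene changed. Depth limits genes at 0 to 3 counts in a group, whose folds are bounds or wide intervals.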
